A study of Danio rerio with 20 samples.

Results

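The cytosolic heat shock chaperones of zebrafish were followed in reporter-positive spinal cord cells after a lesion. The members were the rows of the count table whose gene symbol, with case ignored, is hspa8, hsp70l, hsp70.1, hsp70.2, hsp70.3, hsp90aa1.1, hsp90aa1.2, hsp90ab1, hspb1 or hsph1. Of these 10 symbols 8 were matched, by 9 of the 32266 gene rows, because 2 rows carry the symbol HSPA8. For hsp70.2 and hsp90aa1.2 no row has the symbol, and they were not analysed as members. RefSeq (assembly GRCz12tu) lists hsp70.2 between hsp70.1 and hsp70.3, where the table has the row HSPA2 (ENSDARG00000092362), and hsp90aa1.2 beside hsp90aa1.1, where it has the row HSP90AA1 (ENSDARG00000024746). These rows may be the unmatched members, but no identifier in the files used ties them to those names, and their values stand under the other observations. The cells came from adult fish of the genotype Tg(olig2:eGFP), in which green fluorescent protein is made under control of the olig2 gene, a transcription factor gene of the oligodendrocyte lineage. There were 10 libraries from fish whose cord had been cut 7 days earlier and 10 from sham-operated fish whose cord stayed intact. Both groups carry the same transgene, and the labels give the same protocol of handling for both. Per the labels, 9 cords were used per group; of each a piece of about 0.5 mm was taken, on the rostral side of the lesion or at the matching place, and the pieces were dissociated with an enzyme kit before live green cells were sorted. The labels' protocols give incubations of 15, 10 and 10 min at 37 °C for the tissue of both groups. The libraries of a group may be portions of 1 pool of cells, so that p-values measure only the spread between libraries, which may be technical.

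Chaperones of the Hsp70 family bind unfolded stretches of proteins and release them in a cycle driven by ATP, which J proteins (Hsp40) start and exchange factors reset. Hsp90 proteins act later, on nearly folded clients such as kinases and steroid receptors. Each family has a constitutive cytosolic member, Hsc70 (hspa8) and Hsp90 beta (hsp90ab1), which cells make at all times, and inducible members, which the heat shock factor Hsf1 switches on when unfolded proteins build up. The hsp70l promoter is widely used in zebrafish to switch transgenes on by warming the fish.

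On build GRCz10 the main hspa8 row (ENSDARG00000068992) lies on chromosome 10, 29963106 to 29967488, in 10 exon blocks. RefSeq (assembly GRCz12tu) places hspa8 on the same chromosome, and the name hspa8 is used here for this row. The second HSPA8 row (ENSDARG00000037403) lies on chromosome 15, 19725766 to 19741779. The gene hsp90ab1 (ENSDARG00000029150) lies on chromosome 20, 51384538 to 51398620. The gene hsp70l (ENSDARG00000055723) lies on chromosome 8, 4741891 to 4744644. The genes hsp70.1 (ENSDARG00000029688, 25981914 to 25984688) and hsp70.3 (ENSDARG00000021924, 25992865 to 25996220) lie on chromosome 3, with the row HSPA2 between them. Both are inside the span of atp2a1, with 0 exon bases in common with it. The gene hsp90aa1.1 (ENSDARG00000010478) lies on chromosome 20, 54192871 to 54222597, hspb1 (ENSDARG00000041065) on chromosome 5, 3238284 to 3255083, and hsph1 (ENSDARG00000019874) on chromosome 15, 31683396 to 31707421. The exons of hsp90aa1.1 share 1318 of their 2802 bases, 47.0%, with the row HSP90AA1 (ENSDARG00000024746) on the same strand. The header gives no setting that counts a read for both genes, so the levels of hsp90aa1.1 and of HSP90AA1 may be too low. The hsp70 copies are similar in sequence, so reads that map to more than 1 of them may be lost or divided.

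The labels call the cells oligodendrocyte progenitors (OPCs). OLIG2 ran from 6340 to 10156 CPM in sham and from 5022 to 9405 CPM after lesion, whereas the progenitor marker PDGFRA had 0 CPM in the lowest and 19.9 CPM in the highest of all libraries, and mbpa, a myelin gene of mature oligodendrocytes, at least 9811 CPM in each. The libraries therefore hold much myelin RNA, and the cells are called olig2 reporter-positive here. PDGFRA is 1 progenitor marker among several, and the levels of CSPG4 and GPR17 are not given here. Of the 15 matched oligodendrocyte lineage markers 14 had enough counts to be tested. The share of progenitors among the cells was not tested.

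Library totals ran from 7134670 to 10264810 counts, and the number of genes with a count was higher in every lesion library (13562 to 16518) than in any sham library (10328 to 13117). The letter and number that end each sample title were read here as plate row and column. On that reading the sham libraries stood in columns 1 to 6 and the lesion libraries in columns 7 to 12, so that plate position and group cannot be told apart. By edgeR's quasi-likelihood test at an adjusted p of 0.05, 454 of the 10467 tested genes (4.34%) rose and 339 (3.24%) fell, 7.58% in either direction. The median log2 fold change over all tested genes was 0.03. All 9 member rows passed the filter on low counts and were tested. Of the 9, 2 were called higher and 0 lower, and their median on the log2 scale was 0.04. Lesion replicates 2, 9 and 10 were also left out together, a set picked from earlier results that are not shown here. Both calls held without them. Levels are given as CPM, the counts of a gene scaled to a common library size with TMM factors (trimmed mean of M values).

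The constitutive chaperones hspa8 and hsp90ab1 each rose to about 2 times the sham level after lesion, and the libraries of the groups did not overlap. The level of hspa8, whose product folds newly made proteins and strips clathrin from vesicles, was 959 CPM in the lowest sham library, 1518 CPM in the median and 2463 CPM in the highest. After lesion the lowest library had 3176 CPM, the median was 3530 CPM and the highest had 4108 CPM. All 10 lesion libraries thus lay above the highest sham library. The fold change was 2.2 (95% interval 1.86 to 2.6), or 1.14 ± 0.12 on the log2 scale (SE; adjusted p = 3.6e-07 by edgeR). The level of hsp90ab1, the constitutive Hsp90, was 1069, 1639 and 2694 CPM in the lowest, median and highest sham library. After lesion it was 2960, 3586 and 4002 CPM. Again the lowest lesion library exceeded the highest sham library. The fold change was 2.1 (95% interval 1.77 to 2.49), or 1.07 ± 0.12 on the log2 scale (SE; adjusted p = 8.1e-07 by edgeR). Of all tested genes, 1.45% had lesion libraries that all lay above the sham libraries. A change in the share of cells that make an RNA and a change in its amount per cell cannot be told apart in such bulk libraries.

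Both calls were also made within each plate row of the sample titles. In row A alone, with 6 libraries per group, the log2 fold change was 1.28 for hspa8 (edgeR, adjusted p = 1.5e-04) and 1.14 for hsp90ab1 (2.0e-04). In row B alone, with 4 libraries per group, it was 0.93 (edgeR, adjusted p = 0.045) and 0.99 (0.0494). When the fit also held each library's number of detected genes, which does not overlap between the groups, hspa8 was not called (log2 fold change 0.76, adjusted p = 0.0693 by edgeR), whereas hsp90ab1 was (0.88, edgeR, adjusted p = 0.0391).

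**Figure D1:**
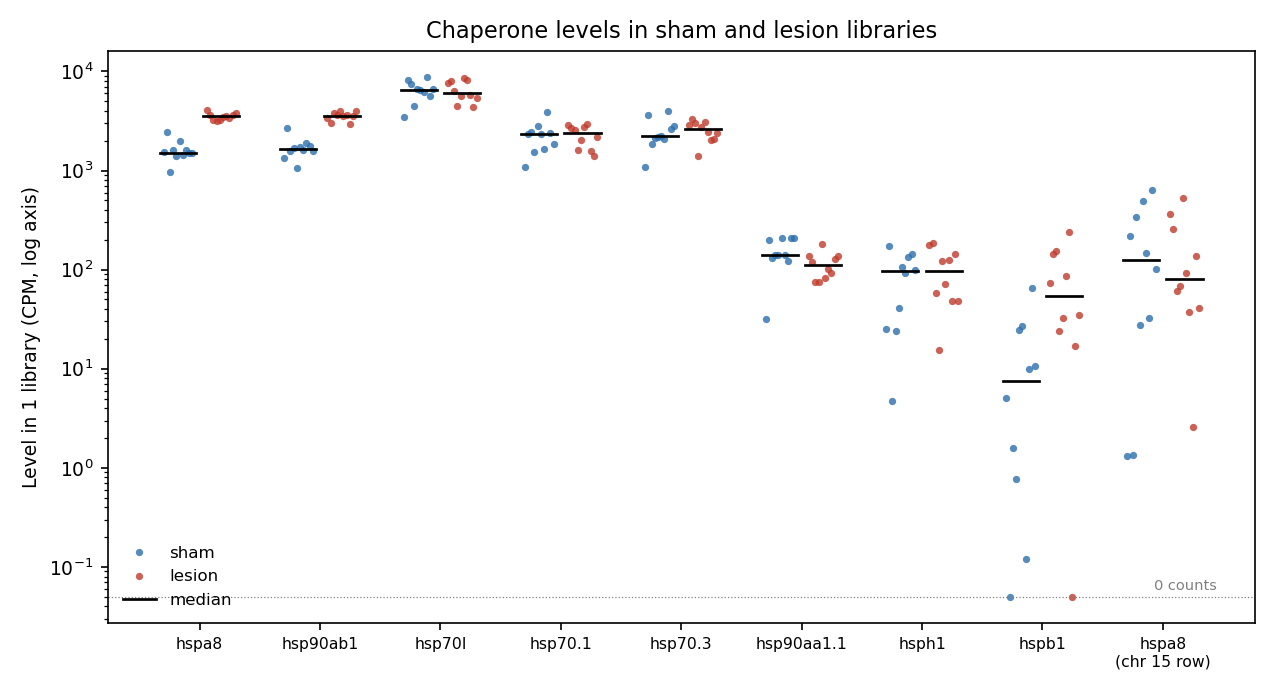
Level of each chaperone row in each library, in CPM on a log axis, for 10 sham (blue) and 10 lesion (red) libraries; black bars are group medians, and points on the dotted line have 0 counts. The lesion libraries of hspa8 (3176 to 4108 CPM) lie above all sham libraries (959 to 2463 CPM), while the hsp70l libraries of both groups mix between 3463 and 8836 CPM.

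The inducible Hsp70 genes were among the most abundant RNAs of both groups. The level of hsp70l, a heat-inducible Hsp70, was 3463 CPM in the lowest sham library, 6542 CPM in the median and 8836 CPM in the highest. After lesion it was 4391, 6091 and 8652 CPM. The lesion range lay wholly inside the sham range. Per kilobase of exon, hsp70l had a mean of 2787 CPM in sham and 2802 CPM after lesion and held rank 14 and rank 16 of the 32266 gene rows. It made up 0.641 ± 0.167% of all counts in sham and 0.627 ± 0.156% after lesion (mean ± SD, n = 10). The log2 fold change was 0.01, with a 95% interval of -0.31 to 0.33 (edgeR, adjusted p = 0.995). The test did not call hsp70l, and the interval leaves room for a change of 0.806-fold to 1.25-fold.

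The chromosome 3 copies were not called either, with wider intervals. The level of hsp70.1 was 1076, 2342 and 3926 CPM in the lowest, median and highest sham library and 1401, 2377 and 2939 CPM after lesion. The level of hsp70.3 was 1079, 2207 and 3955 CPM in sham and 1390, 2598 and 3289 CPM after lesion. For both genes every lesion library lay within the span of the sham libraries. The log2 fold change was 0.01 for hsp70.1 (95% interval -0.37 to 0.40, edgeR, adjusted p = 0.994). It was 0.04 for hsp70.3 (-0.33 to 0.42, edgeR, adjusted p = 0.983). Together hsp70l, hsp70.1 and hsp70.3 held 1.11 ± 0.308% of counts in sham and 1.09 ± 0.254% after lesion. The signs of these 3 small differences change with the scaling of the libraries. By the labels' protocols all libraries passed through the incubations at 37 °C. No library made without them was analysed here, so that the part of this handling in the high levels was not tested.

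Constitutive and inducible Hsp70 thus stood in another proportion after lesion, and that difference was tested directly. The log2 ratio of hspa8 to hsp70l within a library, with 1 CPM added to each level, was -1.99 ± 0.51 in sham and -0.84 ± 0.34 after lesion (mean ± SD, n = 10 libraries), and 8 of 10 lesion libraries lay above the highest sham library. The difference was 1.15 (two-sided permutation test, p = 4.0e-05, adjusted p = 1.6e-04 over 4 pairs). Against hsp70.1 the ratio of hspa8 differed by 1.12 (permutation p = 8.0e-05, adjusted p = 1.6e-04), from -0.44 ± 0.62 to 0.68 ± 0.37. Against hsp70.3 it differed by 1.08 (permutation p = 1.2e-04, adjusted p = 1.6e-04), from -0.57 ± 0.50 to 0.51 ± 0.35. In CPM, hspa8 lay above both chromosome 3 copies in all 10 lesion libraries, and in sham it lay below hsp70.1 in 7 and below hsp70.3 in 9 of 10. The 3 ratios share the hspa8 values and are not independent of each other. They come from the same libraries as the fold changes above, and the members were chosen with earlier results known. The ratio tests are therefore no separate support for those fold changes.

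The Hsp90 pair gave the same direction. The log2 ratio of hsp90ab1 to hsp90aa1.1 was 3.56 ± 0.73 in sham and 5.01 ± 0.42 after lesion (n = 10), a difference of 1.45 (permutation p = 2.0e-04, adjusted p = 2.0e-04). Only 3 of 10 lesion libraries exceeded the highest sham library, sham replicate 1, whose log2 ratio was 5.36. The size of this ratio rests on a row that shares 47.0% of its exon bases with HSP90AA1 and whose level may be too low. HSP90AA1 itself had a mean of 4794 CPM in sham and 3983 CPM after lesion, against 1690 and 3552 CPM for hsp90ab1. No ratio to HSP90AA1 was tested. In row B alone, where the smallest possible p is 0.0286, the differences were 0.80 against hsp70l, 0.47 against hsp70.1, 0.88 against hsp70.3 and 1.56 for the Hsp90 pair, and none was called (exact permutation test, adjusted p = 0.114 for each).

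**Figure D2:**
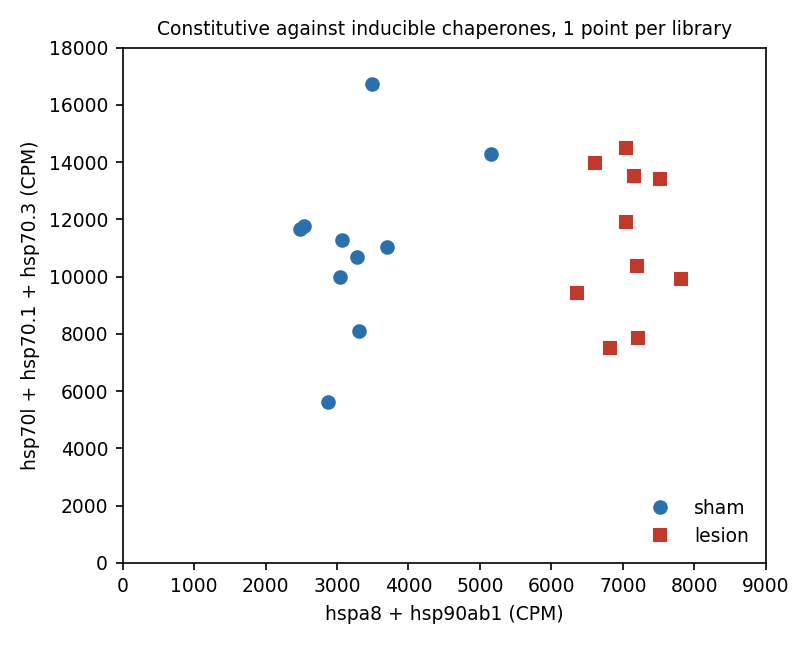
Summed level of the constitutive hspa8 and hsp90ab1 (horizontal axis, CPM) against the summed level of the inducible hsp70l, hsp70.1 and hsp70.3 (vertical axis, CPM), 1 point per library. Along the horizontal axis sham libraries (2480 to 5157 CPM) and lesion libraries (6360 to 7814 CPM) separate; along the vertical axis sham (5618 to 16717 CPM) and lesion (7491 to 14493 CPM) overlap.

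In sum, the rows hspa8 and hsp90ab1 held 3294 ± 761 CPM in sham and 7078 ± 419 CPM after lesion, and the 3 inducible Hsp70 rows 11112 ± 3037 and 11240 ± 2575 CPM. The 3 inducible Hsp70 rows thus held 3.45 ± 0.991 times the sum of hspa8 and hsp90ab1 in sham and 1.59 ± 0.374 times after lesion. This sets Hsp70 rows alone against an Hsp70 and an Hsp90 row together. The abundant rows HSPA2 and HSP90AA1 are in neither sum. Per kilobase of exon, hsp70l was 4.7 ± 1.77 times hspa8 in sham and 2.04 ± 0.463 times after lesion. Between the constitutive genes, hsp90ab1 stood at 0.784 ± 0.178 of hspa8 per kilobase in sham and 0.738 ± 0.105 after lesion. These sums and proportions are descriptions without a test.

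The inducible Hsp90 gene hsp90aa1.1, best known in zebrafish for its part in muscle myosin folding, had far fewer counts than hsp90ab1. The overlapping row HSP90AA1, whose level may also be too low, had more counts than hsp90aa1.1. Per kilobase of exon its mean was 1094 CPM in sham and 909 CPM after lesion, against 478 and 1005 CPM for hsp90ab1. The level of hsp90aa1.1 was 31.5, 140 and 210 CPM in the lowest, median and highest sham library and 74.6, 110 and 181 CPM after lesion. The groups overlapped, and 1 of 10 lesion libraries lay above the sham median. The log2 fold change was -0.44 ± 0.25 (SE; 95% interval -0.96 to 0.08, edgeR, adjusted p = 0.463). It was -0.83 in row B alone, -0.23 in row A alone and -1.56 with detected genes as a covariate (edgeR, adjusted p = 0.0721), and none of these was called.

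The gene hsph1 encodes Hsp110, an exchange factor that resets Hsp70. It ran from 4.75 to 174 CPM in sham (median 96.3) and from 15.5 to 186 CPM after lesion (median 97.1). Its medians nearly coincided while single libraries differed many-fold, and the log2 fold change was 0.24 (95% interval -0.76 to 1.24, edgeR, adjusted p = 0.947), with the opposite sign in row B alone (-0.56) and with detected genes as a covariate (-2.33).

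The small heat shock protein gene hspb1, whose product holds unfolding proteins in solution without ATP, was sparse in sham. Its level was 0, 7.53 and 65.3 CPM in the lowest, median and highest sham library and 0, 54.5 and 238 CPM after lesion, with a count in 9 of 10 libraries of each group. After lesion 9 of 10 libraries lay above the sham median and 5 above the highest sham library. The log2 fold change of 2.47 ± 1.00 (SE) did not pass the test (unadjusted p = 0.0209, edgeR, adjusted p = 0.178), and its 95% interval of 0.41 to 4.53 is wide. In row A it was 1.23, in row B 4.94 and with detected genes as a covariate 1.62.

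The second HSPA8 row, on chromosome 15, was not called. It ran from 1.33 to 642 CPM in sham (median 124) and from 2.57 to 533 CPM after lesion (median 80.5), a log2 fold change of -0.34 (95% interval -2.05 to 1.37, edgeR, adjusted p = 0.963). It was -4.79 with detected genes as a covariate (edgeR, adjusted p = 0.138), in row B alone -0.86, in row A alone -0.20 and in limma-voom 0.19. Both groups therefore held libraries with hardly any of this RNA and libraries in which it was plentiful.

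**Figure D3:**
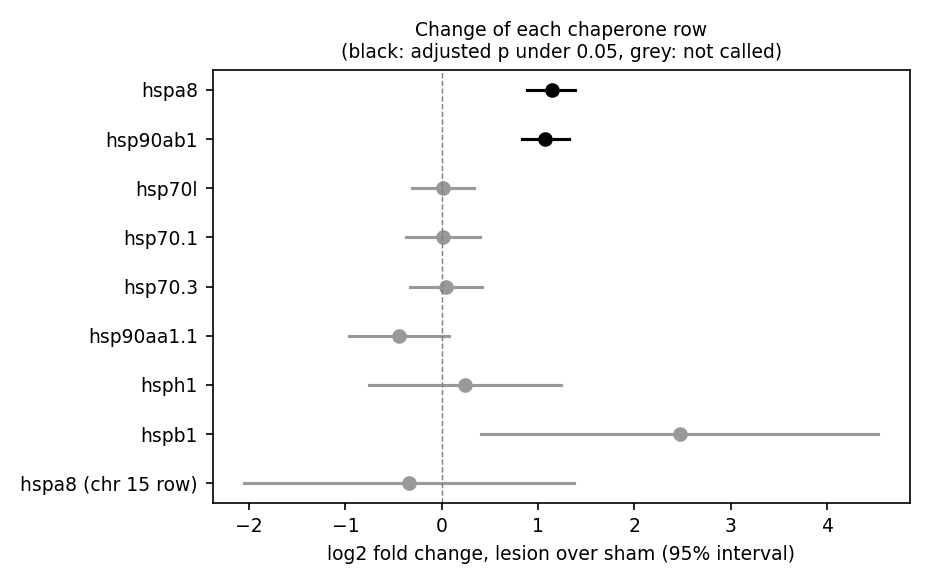
Log2 fold change of lesion over sham for each chaperone row (points) with its 95% interval (lines) from the edgeR fit; black rows passed the adjusted p threshold of 0.05, grey rows did not. The rows hspa8 (1.14) and hsp90ab1 (1.07) stand apart from hsp70l, hsp70.1 and hsp70.3 (0.01 to 0.04), and the intervals of hspb1 and of the chromosome 15 row are the widest.

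Among lesion libraries the constitutive genes varied least of the 9 rows. The coefficient of variation (CV, the SD as a percentage of the mean) after lesion was 8.29% for hspa8 and 9.99% for hsp90ab1, against 24.6% and 24.9% in sham. For hsp70l it was 24.2% after lesion and 25.4% in sham, and for hsp70.1, hsp70.3 and hsp90aa1.1 it lay between 23% and 36.6%. The CV was 59.4% and 68.5% for hsph1, 95% and 140% for hspb1, and 108% and 112% for the chromosome 15 row. The median over all tested genes was 55.8% after lesion and 82.4% in sham, a figure that includes many sparse genes.

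The inducible Hsp70 genes varied together from library to library. With the group means removed, the log2 levels of hsp70l correlated with those of hsp70.1 at a Pearson r of 0.87 and with hsp70.3 at 0.79 over 20 libraries. Of all 10467 tested genes these were the most like hsp70l, followed by another Hsp70 row, HSPA2 (ENSDARG00000092362), at 0.78, which lies between hsp70.1 and hsp70.3. The genes most like hsp70.3 were from outside the family, f3a, SCG3 and AP2S1 (0.86, 0.80 and 0.80). Its values with hsp70l (0.79) and hsp70.1 (0.76) were lower than these. An r of 0.79 also occurred between hspa8 and kmt2ba, so values of this size are not particular to the Hsp70 copies. Among the members, hspa8 followed hsph1 most closely, at 0.66, then hsp90ab1 at 0.50 and the chromosome 15 row at 0.49. With the inducible Hsp70 genes it stood at 0.38 for hsp70.3, 0.12 for hsp70l and 0.08 for hsp70.1. The gene most like hsp90aa1.1 was HSP90AA1, with which it shares exons, at 0.94. These values are descriptions over libraries that may share a pool, and reads divided between similar copies may add to them. Sham replicate 1 was the lowest sham library for each of hsp70l, hsp70.1, hsp70.3 and hsp90aa1.1, and sham replicate 8 the highest for 3 of these 4.

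**Figure D4:**
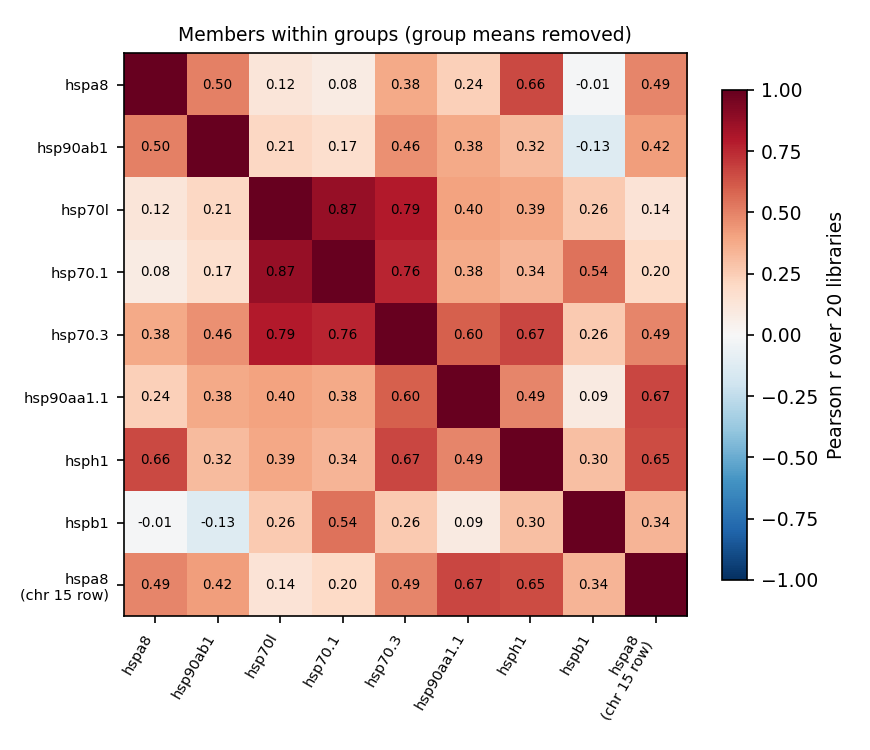
Pearson r between chaperone rows over 20 libraries, from log2(CPM + 1) with the mean of each group removed; red is positive and blue negative. The block of hsp70l, hsp70.1 and hsp70.3 holds values of 0.76 to 0.87, whereas hspa8 and hsp90ab1 stand at 0.08 to 0.46 with that block.

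Partner genes of the chaperones were examined through lists chosen with earlier results of these data known. None of the 24 tested J protein genes and none of the 15 tested Hsp70 exchange factors and partners was called in either direction, where 7.58% of all tested genes were, so that counts of 0 in lists of this size are near the background. The list medians were -0.01 and 0.17 (log2). The most abundant J protein gene with a heat shock role, dnajb1b, had 1523 ± 354 CPM in sham and 1185 ± 257 CPM after lesion (log2 fold change -0.36, adjusted p = 0.153 by edgeR). The exchange factor gene BAG3, a known heat shock gene, had 231 ± 145 and 153 ± 150 CPM (edgeR, adjusted p = 0.835), and STIP1, which bridges Hsp70 and Hsp90, 220 ± 80.8 and 273 ± 110 CPM (0.703). Of 7 genes of heat shock factors and their binding proteins 4 were tested and 0 called, against 7.58% of all tested genes, with a list median of -0.60. The factor gene hsf1 had 16.2 ± 15.5 CPM in sham and 5.41 ± 10.4 CPM after lesion (edgeR, adjusted p = 0.6), and HSF2 43.3 ± 38.4 and 14.6 ± 13.2 CPM (0.384), and neither difference passed the test. The genes of the factors' binding proteins, HSBP1 and hsbp1b, had 31.4 ± 20.3 and 188 ± 31.4 CPM in sham and 62.4 ± 9.2 and 241 ± 48.2 CPM after lesion (log2 fold changes 0.99 and 0.36, edgeR, adjusted p = 0.18 and 0.161).

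Among the Hsp90 partners 3 of 18 tested genes fell and 0 rose, where 3.24% of all tested genes fell and 4.34% rose. FKBP5, an immunophilin of the steroid receptor complex, fell from 852 ± 241 to 321 ± 64.7 CPM, a change of -1.41 on the log2 scale (adjusted p = 1.1e-06 by edgeR), and its lesion libraries all lay below the sham libraries, as did those of 0.554% of all tested genes. UNC45B, a myosin chaperone that works with Hsp90, fell by 1.81 on the log2 scale (adjusted p = 1.4e-04 by edgeR). The gene rpap3, of a complex that assembles RNA polymerase, fell by 1.13 (edgeR, adjusted p = 0.0448). The list median was positive, at 0.27, while all 3 calls were downward. The count was 2 without lesion replicates 2, 9 and 10, 1 with row B alone and 0 with detected genes as a covariate. Of 5 tested small heat shock protein genes beside hspb1, 1 fell, CRYAB (ENSDARG00000101380), alpha B crystallin, from 105 ± 31.1 to 18.8 ± 8.52 CPM (log2 fold change -2.48, adjusted p = 1.0e-04 by edgeR), where 3.24% of all tested genes fell. The other 4 were not called, HSPB2 at -2.58, HSPB8 at 1.95, hspb15 at 1.87 and hspb11 at 0.59 (log2), and the list median was 0.59.

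Genes of the cytosolic chaperonin, a ring that folds actin and tubulin, rose. The list of this chaperonin and prefoldin, which delivers those proteins to it, had 8 of 13 tested genes higher and 0 lower, against 4.34% and 3.24% of all tested genes, and a median of 0.87. The 8 were all 7 tested chaperonin genes (TCP1, cct2, CCT3, CCT4, CCT5, CCT7 and CCT8) and, of 6 prefoldin genes, PFDN4 alone (log2 fold change 0.99, adjusted p = 0.0472 by edgeR). CCT4 rose from 140 ± 52.5 to 392 ± 92.3 CPM (log2 fold change 1.48, adjusted p = 1.0e-05 by edgeR). Its lesion libraries all lay above the sham libraries, as did those of 1.45% of all tested genes. CCT3 rose by 1.17 (edgeR, adjusted p = 0.00153) and CCT7 by 0.90 (edgeR, adjusted p = 0.00239) on the log2 scale. The count was 4 with DESeq2 size factors, 5 without lesion replicates 2, 9 and 10, and 0 with row B alone or with detected genes as a covariate. In mitochondria HSPE1 rose by 1.05 (edgeR, adjusted p = 0.00656) and HSPD1 by 0.96 (edgeR, adjusted p = 0.0122), the lid and barrel of the Hsp60 chaperonin and 2 of 9 tested genes of that list, of which 0 fell, where 4.34% of all tested genes rose. This count was 1 without lesion replicates 2, 9 and 10 and 0 with row B alone or with detected genes as a covariate.

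**Figure D5:**
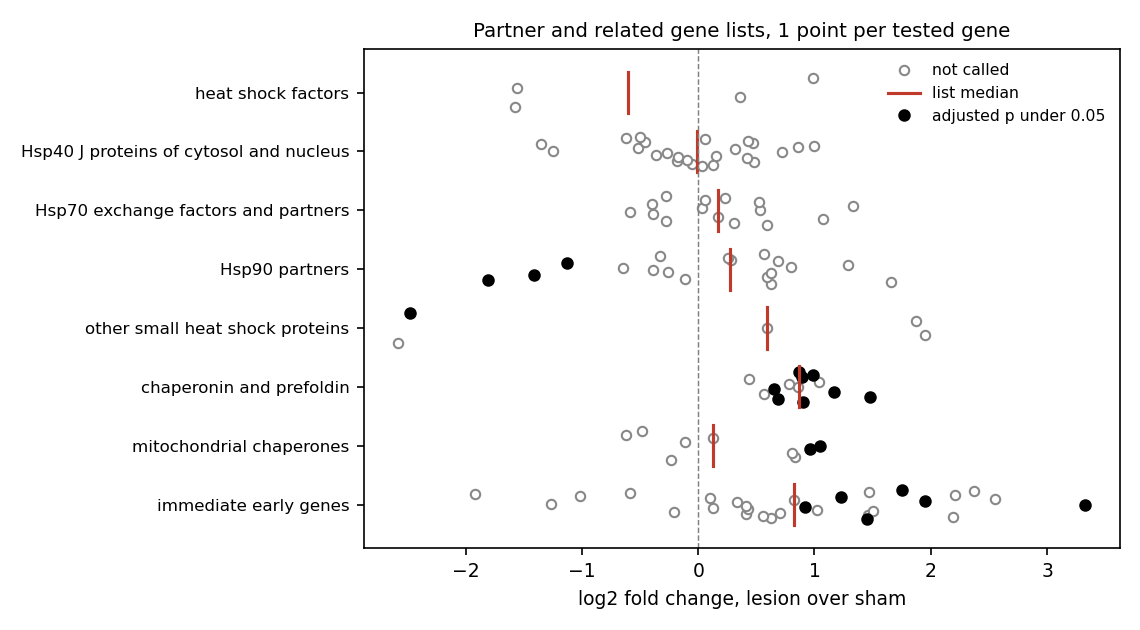
Log2 fold change of lesion over sham for every tested gene of 8 lists of partner and related genes; filled points passed the adjusted p threshold of 0.05, open points did not, and red lines are list medians. All 8 called chaperonin and prefoldin genes lie to the right of 0 and all 3 called Hsp90 partners to the left, while no J protein gene is filled.

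Some genes of other sets were called too. Of 29 tested immediate early genes, which cells switch on within minutes of a stimulus or of dissociation, 6 rose and 0 fell, where 4.34% and 3.24% of all tested genes did; the same shares are the background of the marker counts. The summed level of all 41 matched genes of this list, tested or not, ran from 2971 to 8471 CPM in sham and from 7225 to 12855 CPM after lesion. The 6 higher genes included JUNB (ENSDARG00000104773), from 363 ± 166 to 1224 ± 318 CPM (edgeR, adjusted p = 7.1e-06), and FOS and a second JUNB row (ENSDARG00000074378), which encode partners of the AP-1 complex. FOS rose from 746 ± 284 to 1413 ± 392 CPM (edgeR, adjusted p = 0.0077). The count was 3 without lesion replicates 2, 9 and 10 and 0 with row B alone or with detected genes as a covariate, and 13 in limma-voom. Of 14 matched ependymal and radial glia markers 9 were tested, 3 rose and 3 fell, GFAP and FOXJ1 among the higher ones and SLC1A3 among the lower; their sum ran from 7042 to 11276 CPM in sham and from 4607 to 8989 CPM after lesion. Of 19 microglia and macrophage markers 2 were tested and 1, AIF1L, rose; their sum ran from 20.1 to 280 CPM in sham and from 100 to 756 CPM after lesion, and 6 of them, c1qa and c1qb among these, had 0 counts in all libraries. Of 15 oligodendrocyte lineage markers 14 were tested, 1 rose and 3 fell, mbpa among these (from 30587 ± 4757 to 14622 ± 3260 CPM); their sum ran from 73283 to 118909 CPM in sham and from 48177 to 99595 CPM after lesion. Of 22 neuron markers 7 were tested and 0 called. The log2 fold change was positive in 3 of the 7, with a median of -0.30. The sum of the 22 ran from 358 to 1005 CPM in sham (median 694) and from 369 to 1376 CPM after lesion (median 660). Of the untested neuron markers several had counts only after lesion: ISL1 in 6 libraries (up to 164 CPM), MNX1 in 5 (up to 88.1 CPM), 1 of 2 SLC17A6 rows (ENSDARG00000041150) in 6 (up to 73 CPM) and CHAT in 3 (up to 20.3 CPM). In all, 9 neuron markers were at 0 in every sham library and 2 in every lesion library, and these 2 were at 0 in all libraries. Such a difference was not particular to neuron markers. Of the 19 microglia and macrophage markers 11 were at 0 in every sham library and 7 in every lesion library. Of the 14 ependymal and radial glia markers it was 0 in sham and 1 after lesion. Every lesion library also had more genes of any kind with a count than any sham library. The share of all genes with counts only after lesion was not worked out, and the neuron markers named here were picked after their values were seen. Of 9 endothelial markers 1 was tested and 0 called, with sums up to 26.4 CPM in sham and 99.2 CPM after lesion. Of 12 pericyte and fibroblast markers 2 were tested and 0 called (sums of 36.2 to 185 and 43.3 to 291 CPM), and the 5 red blood cell markers summed to at most 14.7 CPM, with hbaa1 and hbaa2 at 0 in all libraries. The part of these sets in the higher level of hspa8 and hsp90ab1 was not tested.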

How the data were processed

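RNA sequencing of sorted cells was deposited as 1 table of counts per gene, which the authors made with bcl2fastq 2.19.1, GSNAP on build GRCz10 and featureCounts 1.6.2, per the submitters' processing notes. Per the file headers, reads were counted on Ensembl release 87 with a minimum mapping quality of 1 and without regard to strand. The deposited exon length (a size in bases, not a score) gave levels per kilobase. The 92 spike-in rows, with 2 counts in all, were left out. Columns were matched to samples by title, and replicates are numbered in accession order.

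Symbols came from a table of Ensembl identifiers, which names 26433 genes and writes many in capitals (HSPA8, HSP90AB1, HSPB1, HSPH1); members are printed in lower case. The 8 partner lists matched 144 genes by symbol, RefSeq synonym or symbol without paralog letter. The members and lists were chosen with earlier results of these data known.

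Groups were compared with edgeR 4.0.16 under R 4.3.3 (low counts removed by filterByExpr, TMM scaling, quasi-likelihood F test, group as the only term, Benjamini-Hochberg adjustment over 10467 genes, threshold 0.05, two-sided). The SE was derived from the F statistic and the size of the log2 fold change. Ratios within a library were tested by permutation with 100000 resamples (scipy 1.17.1), over 4 of 6 planned pairs, since 2 symbols had no row. The edgeR fit was checked on simulated counts with known changes, and the permutation test was not. DESeq2 1.42.0, limma 3.58.1 and other settings were alternatives. Named list genes are, per list, up to 3 with the smallest p in each direction; dnajb1b, BAG3, STIP1, the genes of heat shock factors and their binding proteins, the uncalled small heat shock protein genes, the other chaperonin genes and the cell markers were named after their values were seen. RNA sequences were not used here.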

Additional observations from a re-analysis of the deposited data

Results flagged for a closer look

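Outlying libraries were sought in 18 sets of 10 values, 9 rows in each of 2 groups. The measure was the gap to the nearest library as a share of the whole range. Were the values normally distributed, chance alone would mark about 1 in 20 such sets. That rate need not hold for skewed rows such as hspb1, with a CV of 140% in sham. For hsp90aa1.1 sham replicate 1 was the lowest library with 31.5 CPM, the next having 122 CPM, a gap of 0.509 of the range against a critical value of 0.466. For hsp90ab1 sham replicate 2 was the highest sham library with 2694 CPM, the next having 1874 CPM (gap 0.504). It still lay below the lowest lesion library, at 2960 CPM. For hspb1 sham replicate 9 was the highest sham library with 65.3 CPM, the next having 26.8 CPM (gap 0.591).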

How the results depend on the processing

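The calls of hspa8 and hsp90ab1 held in each of 20 fits that left out 1 library. Over 8 other settings hsp90ab1 kept its call, with log2 fold changes from 0.88 to 1.14, and hspa8 kept it in 7, the exception being detected genes as a covariate (0.76). The other 7 rows were called in no setting. Signs turned with size factors from DESeq2 in edgeR or in its own test, for hsp70l (-0.058), hsp70.1 (-0.053) and hsp70.3 (-0.022); in row A alone for hsp70l (-0.078) and hsp70.1 (-0.25); with detected genes as a covariate for hsp70.1 (-0.10), hsp70.3 (-0.53) and hsph1 (-2.33); in row B alone for hsph1 (-0.56); and in limma-voom for the chromosome 15 row (0.19). With 1 library left out, the ranges were -0.064 to 0.07 for hsp70l, -0.069 to 0.14 for hsp70.1, -0.044 to 0.15 for hsp70.3 and -0.80 to 0.066 for the chromosome 15 row. The 4 ratio differences were tested with 1 library left out (20 settings) and in 5 other settings. Detected genes as a covariate was not among these. They lost their call in row B alone (0.80, 0.47, 0.88 and 1.56) and in no other setting tried for them. The number of genes called higher was 1380 in limma-voom, 2780 without a filter, 207 in row B and 140 with detected genes as a covariate. The number called lower was 562 in the DESeq2 test, 758 without a filter, 201 in row A, 40 in row B and 36 with the covariate. The median log2 fold change of all genes was 0.70 in limma-voom and 0.21 without a filter. The cause of these changes was not tested. The counts of the partner lists under other settings were chosen after seeing the data. No paired analysis was made, because the groups came from different fish and the labels link no lesion library to a sham library.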

Other observations

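Close relatives of the inducible members that carry other symbols were not called. HSPA2, the Hsp70 row between hsp70.1 and hsp70.3, where RefSeq lists hsp70.2, had 1693 ± 628 CPM in sham and 1708 ± 489 CPM after lesion (log2 fold change 0.01, 95% interval -0.40 to 0.42, adjusted p = 0.994 by edgeR). HSP90AA1, the Hsp90 row that overlaps hsp90aa1.1, beside which RefSeq lists hsp90aa1.2, had 4794 ± 1614 and 3983 ± 1166 CPM (log2 fold change -0.27, 95% interval -0.74 to 0.21, adjusted p = 0.745 by edgeR). It was the more abundant of these overlapping rows, at rank 43 of 32266 gene rows per kilobase in sham and rank 83 after lesion. The row hsc70, which RefSeq lists as a gene of its own on chromosome 15, was too sparse for the test, with a count in 7 sham and 4 lesion libraries and at most 30.3 CPM.

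The genes most like hspa8 over 20 libraries, with group means removed, were kmt2ba, RIDA and ZBTB11 (Pearson r 0.79, 0.78 and 0.76), and those most like hsph1 were GNG7, SLC30A1 and CTNNB1 (0.85, 0.83 and 0.82). These are descriptions chosen as the highest of 10467 values.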
